A study of Ovis aries with 30 samples.

Results

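Endothelial cells line blood and lymph vessels, and the genes described here are 38 that are known as markers of these cells or as parts of the signals they use. They were taken from the deposited count table by name, with no threshold on a measured value. Of the 38 genes, 37 were among the 28524 genes of the table, and ICAM2 was not analysed here. All 37 passed the filter on low counts in both tissues.

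RNAseq was done on perirenal brown adipose tissue (BAT) and on the thyroid of 15 newborn Romney lambs, which gave 30 libraries, 2 from each lamb. Of the lambs, 6 were held for 2 days at 4 °C (cold), 6 were held for 2 days at 20 to 22 °C (ambient temperature, AT), and 3 controls had their tissues collected at around 24 h after lambing, before any treatment. The treated lambs were therefore older than the controls, so treatment and age cannot be told apart in a comparison with the controls, while cold and AT lambs were of the same age. The study left 1 control lamb out of its tests, and this lamb is called control 2 here. Its 2 libraries are shown on their own beside control 1 and control 3, which entered the tests. The labels name no transgene and no drug, and the lambs are numbered within each group only to name them.

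Endothelial cells hold to each other through VE-cadherin, claudin-5 and PECAM1, and answer to a small number of signals, among them Notch, the angiopoietins with their TIE receptors, and BMP9, which acts through the receptor ALK1 and its co-receptor endoglin. Factors of the ETS and SOX families keep their gene programme. In BAT a dense capillary bed brings oxygen and fatty acids and carries heat away, and in thyroid tissue fenestrated capillaries wrap each follicle. In RNA from whole tissue, fewer endothelial cells and less RNA per endothelial cell cannot be told apart.

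Depth ranged from 31556500 to 37025998 counts per BAT library and from 25062784 to 30124871 per thyroid library, but a single pair of LOC genes took 43.8 to 76.5% of the BAT counts and 5.18 to 27.8% of the thyroid counts. Counts were divided by size factors from the reference genes ACTB, RPL19 and HUWE1, as in the study, and are called normalized counts. The labels matched the tissues: TG, which encodes thyroglobulin, the protein that thyroid hormone is made from, had a log2FC of -12.39 ± 0.88 (SE) in BAT against thyroid tissue of the treated lambs. Skeletal muscle genes summed to 3535310 in the thyroid library of AT lamb 3 and to 321911 in that of control 1, against at most 4123 in the other thyroid libraries. The BAT library of control 2 stood apart: its geometric mean over the 37 genes was 598, against 1530 to 2349 in the 14 other BAT libraries. In thyroid tissue the value of control 2 was 794, only just below the 823 to 1817 of the others. The sum of the 37 genes there was 83036.8, within the AT lambs (58948 to 100754) and near control 1 (89414). A list of brown and white adipocyte genes summed to 384206 in BAT of control 2, against 33193 to 139376 in the other BAT libraries, and to 57470.2 in its thyroid library, against 5383 to 16358 in the others. The part of this in the values of control 2 was not tested.

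Divided by exon length, which makes levels of different genes comparable, EGFL7, a secreted protein of the vessel wall, was the highest of the 37 genes in BAT, with a median of 14374 normalized counts per kilobase over the 12 treated lambs, on the scale shared by both tissues. ECSCR (5564) and PECAM1 (5513), surface proteins of endothelial cells, came next, and their ranges over the lambs overlapped. The thyroid order was led by PLVAP, which forms the diaphragms of fenestrated capillaries, with a median of 3310.2 per kilobase, followed by EGFL7 (1886) and by the junction protein ESAM (1288). The lymphatic factor PROX1 was the lowest gene in both tissues, with 13 per kilobase in BAT and 7.02 in thyroid tissue. The other lymphatic gene, LYVE1, a hyaluronan receptor, had 245 and 73.8.

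Most endothelial genes were higher in BAT than in thyroid tissue of the same lamb. Over the 12 treated lambs, 34 of the 37 genes were called higher in BAT and 0 lower, where a gene was called at an absolute log2 fold change (log2FC) of at least 1 and an adjusted p under 0.05 in edgeR. Of all 17021 genes tested, 27.2% were called higher and 13.3% lower. The median log2FC was 2.38 over the 37 genes and 0.34 over all genes tested. At the adjusted p alone, 35 were higher and 1, ANGPT2, was lower.

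Claudin-5 (CLDN5), which seals junctions, was higher in BAT in each of the 12 treated lambs, with a log2 ratio of 2.80 to 4.71 (median 3.97) within a lamb, and the fit gave log2FC 3.94 ± 0.15, adjusted p = 5.02e-18. The next largest values were those of HEY1, a Notch target (3.69 ± 0.21, adjusted p = 2.02e-14), and of VWF, the clotting protein stored in endothelial granules (3.64 ± 0.14, adjusted p = 9.23e-18). The called genes with the smallest values were PROX1 (1.15 ± 0.28, adjusted p = 0.000653), EMCN, a surface sialomucin (1.16 ± 0.18, adjusted p = 1.72e-06), and ESAM (1.22 ± 0.13, adjusted p = 5.19e-09).

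The 3 genes that were not called include both ligands of the TIE2 receptor TEK. ANGPT1, the activating ligand, which pericytes make, had log2FC 0.43 ± 0.15, adjusted p = 0.0126, and ANGPT2, the ligand released by endothelial cells themselves, had -0.60 ± 0.20, adjusted p = 0.00994 and was lower in BAT in 8 of 12 lambs. PLVAP had -0.31 ± 0.16, adjusted p = 0.0869. TEK itself was called higher in BAT (1.51 ± 0.13, adjusted p = 1.1e-10), as was its partner receptor TIE1 (2.56 ± 0.13, adjusted p = 1.86e-15).

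In control 2 the BAT to thyroid ratio was often far from those of control 1 and control 3. For CLDN5 the log2 ratio was 3.08 in control 1, 0.36 in control 2 and 2.79 in control 3. The scale across tissues rests on the 3 reference genes, and TMM scaling, which uses most genes, moved the median of all genes from 0.34 to 0.10 and the number of called genes from 34 to 31.

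**Figure D1:**
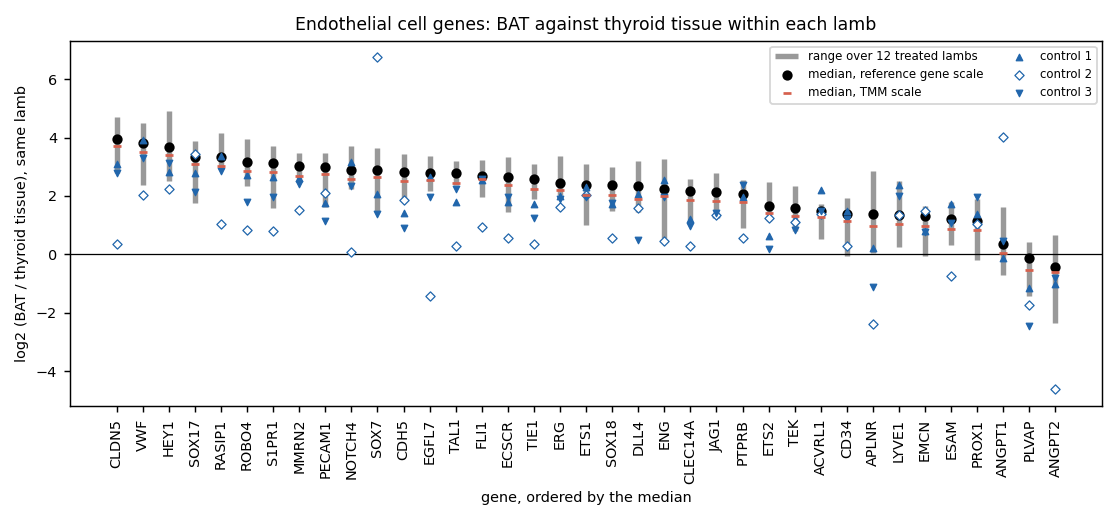
Log2 ratio of BAT to thyroid tissue within each lamb (vertical axis) for the 37 endothelial genes, ordered by the median over 12 treated lambs (black points), with the range over these lambs (grey bars), the median on the TMM scale (red dashes) and each control on its own (blue marks). The medians run from 3.97 for CLDN5 to -0.42 for ANGPT2, and only ANGPT2 and PLVAP lie below 0.

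In BAT, ENG was the 1 endothelial gene called between cold and AT. Endoglin, its product, is the co-receptor for BMP9 on endothelial cells, and the gene lies at chr3:8624426-8654917 on the plus strand of Oar_rambouillet_v1.0. Its normalized counts were 7824 to 16808 (median 11116) in cold lambs, 2628 to 7132 (median 4246) in AT lambs, and 9628 in control 1, 2050.3 in control 2 and 11420.2 in control 3. Every cold lamb was above every AT lamb, and control 1 and control 3 lay within the range of the cold lambs, while control 2 was below all AT lambs.

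ENG was upregulated in cold against AT (log2FC 1.40 ± 0.23 (SE), adjusted p = 0.0201), where 0.188% of the 14905 genes tested in BAT were called higher. It was downregulated in AT against control (log2FC -1.25 ± 0.30 (SE), adjusted p = 0.0199), and in cold against control the value was 0.14 ± 0.33, adjusted p = 0.859. Over the 14 fits that each left out 1 library, the cold against AT value stayed between 1.26 and 1.58, with adjusted p up to 0.0792, and the call was lost without AT lamb 1, 3 or 5 and without cold lamb 3 or 4. With control 2 added to the other controls, the log2FC was 1.40 with adjusted p = 0.232, and the value in AT against control was -0.72 with adjusted p = 0.223. The other member of the receptor complex, ACVRL1, which encodes ALK1, had 0.55 ± 0.17, adjusted p = 0.212 in cold against AT and -0.60 ± 0.23, adjusted p = 0.11 in AT against control.

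ETS1, an ETS transcription factor at chr21:32880213-33022656 on the minus strand, was the second gene called lower in AT against control (log2FC -1.29 ± 0.33 (SE), adjusted p = 0.024). Normalized counts of ETS1 were 1570.2 to 4581 (median 2101) in AT lambs, 2273 to 4834 (median 3555) in cold lambs, and 5374 in control 1, 3216 in control 2 and 6834 in control 3. Control 1 and control 3 were above all 12 treated lambs, and control 2 lay inside both treated groups. The 2 called genes, ENG and ETS1, compare with 3.21% of all genes called lower. Leaving out control 1 or control 3 ended both calls, and leaving out AT lamb 3 ended that of ETS1 (ENG adjusted p = 0.0935 and 0.197, ETS1 adjusted p = 0.0971, 0.25 and 0.0577).

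At the adjusted p alone, VWF was also lower in AT against control (log2FC -0.95 ± 0.24 (SE), adjusted p = 0.0226), so that 3 of the 37 genes passed, against 6.15% of all genes in that direction. VWF had 9049 to 13816 (median 10790) normalized counts in AT lambs, 13461 to 23193 (median 18675) in cold lambs, and 24596 in control 1, 6712 in control 2 and 18642 in control 3. AT lambs lay below control 1 and control 3 and overlapped the cold lambs only in that the highest AT lamb was above the lowest cold lamb. In cold against AT the value for VWF was 0.71 ± 0.18, adjusted p = 0.116, and with TMM scaling the adjusted p was 0.0419.

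The Notch genes had values in both directions between cold and AT in BAT. DLL4, the Notch ligand of sprouting tip cells and arteries, had 217 to 560 (median 368) normalized counts in cold lambs, 508 to 1486 (median 789) in AT lambs, and 737 in control 1, 293 in control 2 and 523 in control 3. The lowest AT lamb lay within the range of the cold lambs, and the difference did not pass in edgeR (log2FC -1.18 ± 0.26 (SE), adjusted p = 0.0782), while DESeq2 gave adjusted p = 0.00314. NOTCH4, the endothelial receptor, had -0.79 ± 0.27, adjusted p = 0.276 and a wide spread in AT lambs, from 3281 to 11151. In the other direction, HEY1 had 0.64 ± 0.23, adjusted p = 0.292, with 612 to 1225 (median 882) in cold lambs, 419 to 831 (median 485) in AT lambs, and 774 in control 1, 196 in control 2 and 1332 in control 3, and the ligand JAG1 had 0.42 ± 0.19, adjusted p = 0.382. None of these 4 genes was called.

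**Figure D2:**
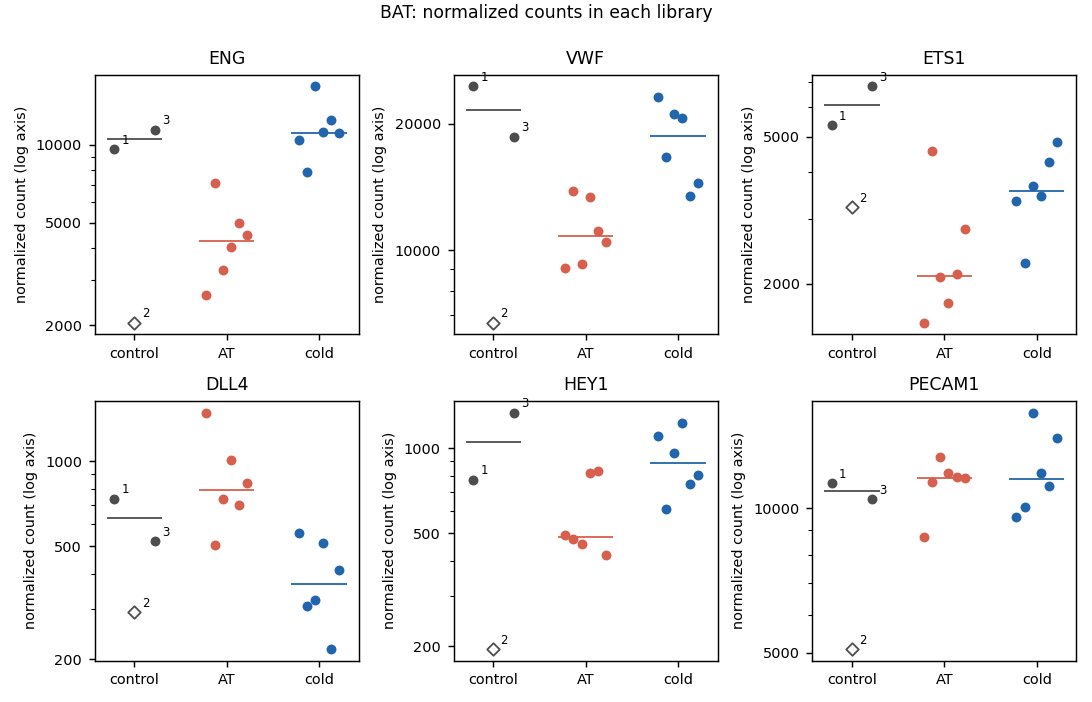
Normalized counts of 6 endothelial genes in each BAT library (vertical axis, logarithmic) for controls, AT lambs and cold lambs, where lines are medians of the libraries that entered the tests, numbers name the controls and the open diamond is control 2. The cold lambs lie above all AT lambs for ENG, from 7824 against a highest AT value of 7132, and cold and AT lambs overlap for the other genes shown.

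The junction proteins that define the cell type were not called in any BAT comparison. PECAM1 had 9581 to 15813 (median 11479) normalized counts in cold lambs, 8695 to 12757 (median 11580.2) in AT lambs, and 11279.6 in control 1, 5090.2 in control 2 and 10439.5 in control 3, with log2FC 0.09 ± 0.16, adjusted p = 0.817 between cold and AT. CDH5, which encodes VE-cadherin, had 2827 to 4708 (median 3384), 3212 to 4688 (median 4149.9), and 2404 in control 1, 667 in control 2 and 2722 in control 3. The treated lambs were above control 1 and control 3 for CDH5, and neither difference passed (cold 0.48 ± 0.25, adjusted p = 0.32; AT 0.66 ± 0.25, adjusted p = 0.107). Over the 37 genes the median log2FC in cold against AT was 0.16, against -0.05 over all genes, and 23 genes had positive values. Apart from ENG and DLL4, all lay between -0.79 for NOTCH4 and 0.74 for PTPRB, the phosphatase VE-PTP. The 8 transcription factors had a median of 0.22, with 5 above 0, and the 4 genes of the angiopoietin group had a median of -0.10, with 2 above 0. None of these genes passed.

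Against the controls, 0 of the 37 genes were called for cold in BAT by edgeR, where 1.21% of all genes were called. At an unadjusted p under 0.05 there were 5, and 2704 of all 14905 genes, and DESeq2 called 1, PLVAP, with adjusted p = 0.027. PLVAP had log2FC 1.19 ± 0.39, adjusted p = 0.115 in edgeR. The counts were 2528 to 5986 (median 3690.4) in cold lambs and 2012 in control 1, 942 in control 2 and 1359 in control 3, with all controls below all cold lambs. At the other end was ROBO4, a receptor of quiescent vessels (-0.79 ± 0.24, adjusted p = 0.0907), with 5258 to 8565 (median 6424) in cold lambs, 4577 to 8366 (median 6820.1) in AT lambs, and 12516 in control 1, 1614 in control 2 and 10002 in control 3. The median over the 37 genes was 0.07 for cold and -0.07 for AT, against -0.10 and -0.03 over all genes. When control 2 took the place of control 3 these medians were 0.70 and 0.56, against 0.17 and 0.23 over all genes.

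In thyroid tissue, several endothelial genes were lower in treated lambs than in control 1 and control 3. For cold, 6 of the 37 genes were called lower (ROBO4, DLL4, HEY1, PECAM1, ETS1 and CDH5) and 0 higher, where 6.15% of all 16122 genes tested were called lower. For AT, 4 were called lower (ROBO4, PECAM1, ETS1 and DLL4) and 0 higher, where 5.98% of all genes were called lower. At the adjusted p alone, 13 were lower for cold and 12 for AT, against 16.9% and 18.7% of all genes. The median log2FC over the 37 genes was -0.67 for cold and -0.59 for AT, and over all genes it was -0.28 for both. Of the 37 values, 7 were positive for cold and 3 for AT. These comparisons share their controls.

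ROBO4, at chr21:29342089-29356744 on the minus strand, had the largest value. Normalized counts were 1412 to 2029 (median 1594) in cold lambs, 1531 to 3430.1 (median 1721) in AT lambs, and 4846 in control 1, 2347 in control 2 and 7207 in control 3. Control 1 and control 3 were above all 12 treated lambs, and control 2 was above all cold lambs but below AT lamb 1, which at 3430.1 stood far above the other AT lambs. The fit gave log2FC -1.84 ± 0.25 (SE), adjusted p = 0.00123 for cold and -1.59 ± 0.25, adjusted p = 0.00173 for AT. Without control 3 the values were -1.51 (adjusted p = 0.0528) and -1.26 (adjusted p = 0.101).

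PECAM1, at chr11:14290647-14356861 on the plus strand, had 3381 to 5238 (median 3926) in cold lambs, 2639.9 to 7426 (median 3889.7) in AT lambs, and 8486 in control 1, 3060.2 in control 2 and 11824 in control 3. Control 2 was below every cold lamb and within the AT lambs, the reverse of the other controls. With control 1 and control 3 the values were -1.30 ± 0.30, adjusted p = 0.0106 for cold and -1.25 ± 0.30, adjusted p = 0.0111 for AT, and with all 3 controls they were -0.92 (adjusted p = 0.0788) and -0.87 (adjusted p = 0.0978).

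CDH5, at chr14:36910535-36949606 on the plus strand, had 2275 in control 1, 471 in control 2 and 3695 in control 3. Cold lambs had 1162 to 2066 (median 1473) and AT lambs 907 to 2485 (median 1398). Control 2 was below all treated lambs and control 3 above all of them. Cold against control gave -1.0 ± 0.31, adjusted p = 0.0349, only just past the threshold on log2FC, and AT gave -0.98 ± 0.31, adjusted p = 0.0351, which missed the threshold on log2FC. The call for cold was lost without control 3, without AT lamb 2 or 5, and without cold lamb 2, 4, 5 or 6, with values from -1.31 to -0.59. With control 2 in the place of control 3 the sign turned, to 0.12 for cold (adjusted p = 0.895) and 0.14 for AT (adjusted p = 0.878).

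Notch genes were among the lower ones in thyroid tissue. DLL4 had 195 to 320.3 (median 249.6) in cold lambs, 240 to 549.7 (median 308) in AT lambs, and 444 in control 1, 251 in control 2 and 933 in control 3. Cold lambs were below control 1 and control 3 (-1.44 ± 0.31, adjusted p = 0.00805), while AT lamb 1, at 549.7, was above control 1 (-1.03 ± 0.32, adjusted p = 0.0329). HEY1 had 60.2 to 231 (median 127) in cold lambs, 102 to 224 (median 167) in AT lambs, and 277 in control 1, 106 in control 2 and 386 in control 3, and was called for cold (-1.34 ± 0.41, adjusted p = 0.0354) and not for AT (-1.01 ± 0.42, adjusted p = 0.0958). The call of DLL4 for AT was lost without control 3 or without AT lamb 2, 4, 5 or 6 (adjusted p up to 0.69), and that of HEY1 for cold without control 3 or without cold lamb 1, 5 or 6 (adjusted p up to 0.403).

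JAG1 passed at the adjusted p in both comparisons, just short of the threshold on log2FC, with -0.96 ± 0.19, adjusted p = 0.0052 for cold and -0.997 ± 0.19, adjusted p = 0.00342 for AT. Its counts were 1545 to 2164 (median 1734), 1284 to 2210.4 (median 1746), and 2897 in control 1, 1627 in control 2 and 4103 in control 3, so that control 2 lay inside the treated groups. NOTCH4 had -0.59 ± 0.29, adjusted p = 0.149 for cold.

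**Figure D3:**
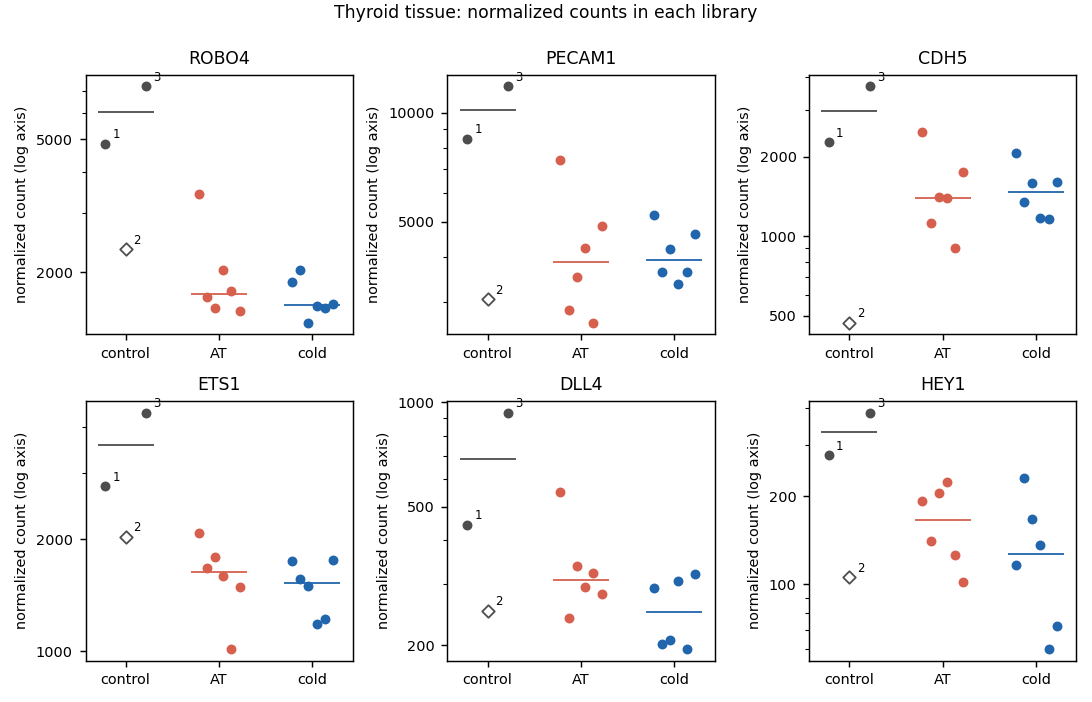
Normalized counts of the 6 endothelial genes called in cold against control, in each thyroid library (vertical axis, logarithmic), with medians of the libraries that entered the tests as lines, the controls numbered and control 2 as an open diamond. Control 1 and control 3 lie above all cold lambs for each gene, while control 2 lies below both of them throughout, at 471 for CDH5.

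Among the transcription factors, ETS1 was called lower for cold (-1.26 ± 0.23, adjusted p = 0.00368) and AT (-1.15 ± 0.23, adjusted p = 0.00441). It had 1188 to 1755 (median 1527) in cold lambs, 1016 to 2073 (median 1632) in AT lambs, and 2775 in control 1, 2032 in control 2 and 4367 in control 3. Control 1 and control 3 were above all 12 treated lambs. FLI1, which lies near ETS1 on chromosome 21, passed at the adjusted p alone (-0.67 ± 0.21, adjusted p = 0.0371 for cold), as did ETS2 (-0.95 ± 0.28, adjusted p = 0.0279). ERG, near ETS2 on chromosome 1, did not (-0.40 ± 0.27, adjusted p = 0.312). The SOX factors SOX7, SOX17 and SOX18 had -1.17, -0.92 and -0.30 for cold, with no adjusted p under 0.05.

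MMRN2, a matrix protein that binds CLEC14A, had 416 to 748 (median 636) in cold lambs, 456 to 722 (median 538) in AT lambs, and 845 in control 1, 523 in control 2 and 1228 in control 3, and passed at the adjusted p alone (cold -0.73 ± 0.23, adjusted p = 0.0371, AT -0.89 ± 0.22, adjusted p = 0.0143). CLEC14A, ECSCR and RASIP1 also passed for cold, at -0.74, -0.79 and -0.79. VWF did not pass (cold -0.55 ± 0.27, adjusted p = 0.148), with 2337 to 3718 (median 2994) in cold lambs, 1733 to 4627 (median 3019.7) in AT lambs, and 4114 in control 1, 4191 in control 2 and 4761 in control 3. For VWF all 3 controls were above all cold lambs. CD34, EMCN, PTPRB and ACVRL1 were close to 0 and lay between -0.03 and 0.20 for cold.

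The receptors APLNR, which binds apelin, and S1PR1, which binds sphingosine 1-phosphate, did not pass in thyroid tissue (cold -1.19 ± 0.42, adjusted p = 0.06 and -0.68 ± 0.32, adjusted p = 0.139). APLNR was spread widely, with 678 to 1604 (median 1099) in cold lambs, 655 to 2069.9 (median 1018) in AT lambs, and 1287 in control 1, 495 in control 2 and 3711 in control 3. TEK and TIE1 had -0.49 ± 0.27, adjusted p = 0.209 and -0.58 ± 0.26, adjusted p = 0.132 for cold, and the ligands ANGPT1 and ANGPT2 had 0.44 and 0.25. In control 2 ANGPT2 had 5901 normalized counts, above the 2011 of the highest cold lamb.

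The lymphatic markers had positive values. PROX1, the factor that sets lymphatic identity, had 63.6 to 124 (median 94.9) in cold lambs, 49.5 to 201 (median 94.4) in AT lambs, and 55.4 in control 1, 64.8 in control 2 and 51.6 in control 3, and LYVE1 had 171 to 903 (median 422), 148 to 836 (median 257), and 276 in control 1, 647 in control 2 and 225 in control 3. Neither passed for cold (PROX1 0.79 ± 0.48, adjusted p = 0.251; LYVE1 0.90 ± 0.70, adjusted p = 0.386) or for AT (PROX1 1.11 ± 0.49, adjusted p = 0.112; LYVE1 0.44 ± 0.68, adjusted p = 0.671). In BAT the counts were also spread widely within a group, for PROX1 22.3 to 129 (median 80.7) in cold lambs, 38.2 to 212 (median 67.2) in AT lambs, and 57.5 in control 1, 51.6 in control 2 and 80.4 in control 3, and for LYVE1 141 to 757 (median 449), 126 to 960 (median 268), and 560.2 in control 1, 637 in control 2 and 359 in control 3.

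The size of the thyroid differences rested on which controls entered. Control 3 was the higher of the 2 controls for 32 of the 37 genes. Without it, 0 genes were called in either comparison and the medians were -0.29 for cold and -0.31 for AT, and without control 1, whose library held muscle transcripts, 12 were called for cold and 10 for AT, with medians of -0.87 and -0.84. With control 2 in place of control 3, 3 and 1 were called, with medians of -0.07 and -0.04. TMM scaling moved the median of all genes to 0.02 for cold and 0.05 for AT and left 2 and 1 of the endothelial genes called. Without AT lamb 1, which held the highest AT value for 26 of the 37 genes, 8 were called for AT.

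**Figure D4:**
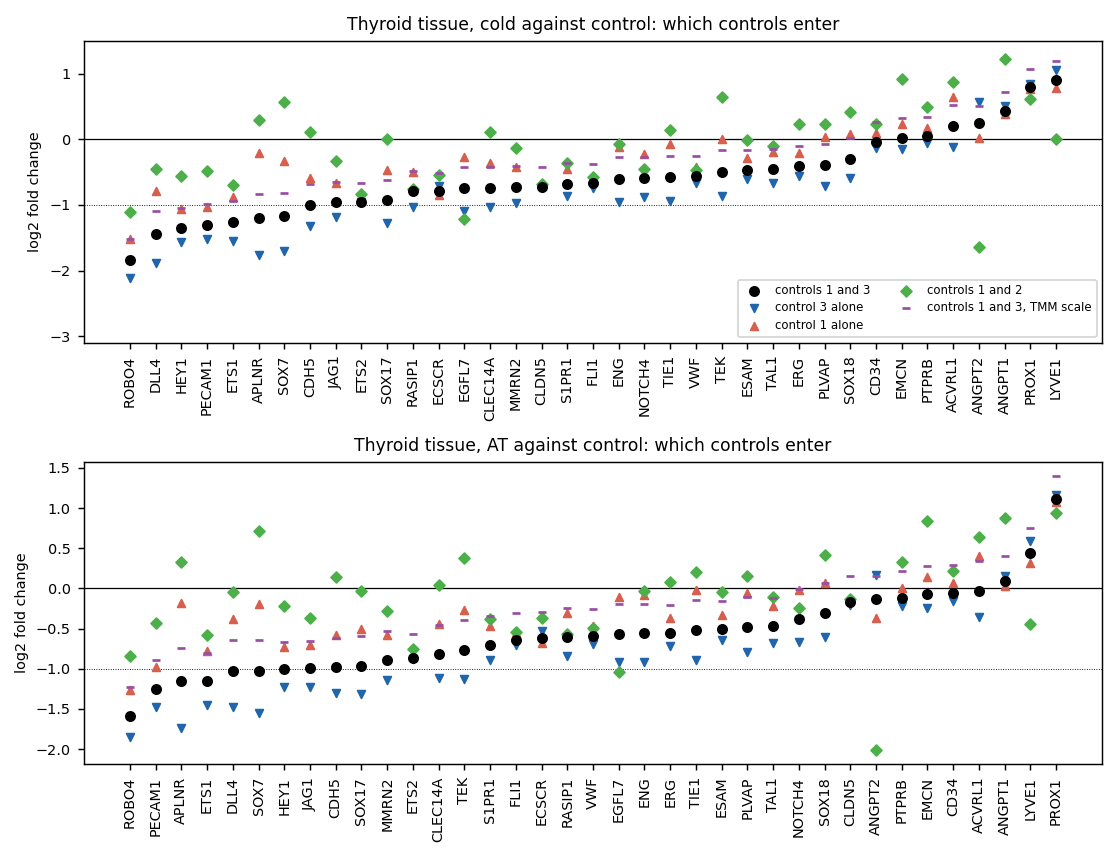
Log2 fold change of each of the 37 endothelial genes in thyroid tissue (vertical axis) for cold (upper panel) and AT (lower panel) against different sets of controls, in the order of the values with control 1 and control 3 (black). With control 3 alone (blue) the median for cold is -0.87 and with controls 1 and 2 (green) it is -0.07.

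Between cold and AT, 0 of the 37 genes were called in thyroid tissue by edgeR or by DESeq2, and 0% of all genes were. One gene, CLDN5, had an unadjusted p under 0.05 (-0.54 ± 0.21, adjusted p = 0.911), as had 870 of all 16122 genes. The values ran from -0.54 for CLDN5 to 0.46 for LYVE1, with a median of 0.01. ENG, which differed in BAT, had 3198 to 4887 (median 3661) in cold lambs, 3356 to 4742 (median 3854) in AT lambs, and 4175 in control 1, 3827 in control 2 and 7393 in control 3 in thyroid tissue, with log2FC -0.04 ± 0.15, adjusted p = 0.991.

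**Figure D5:**
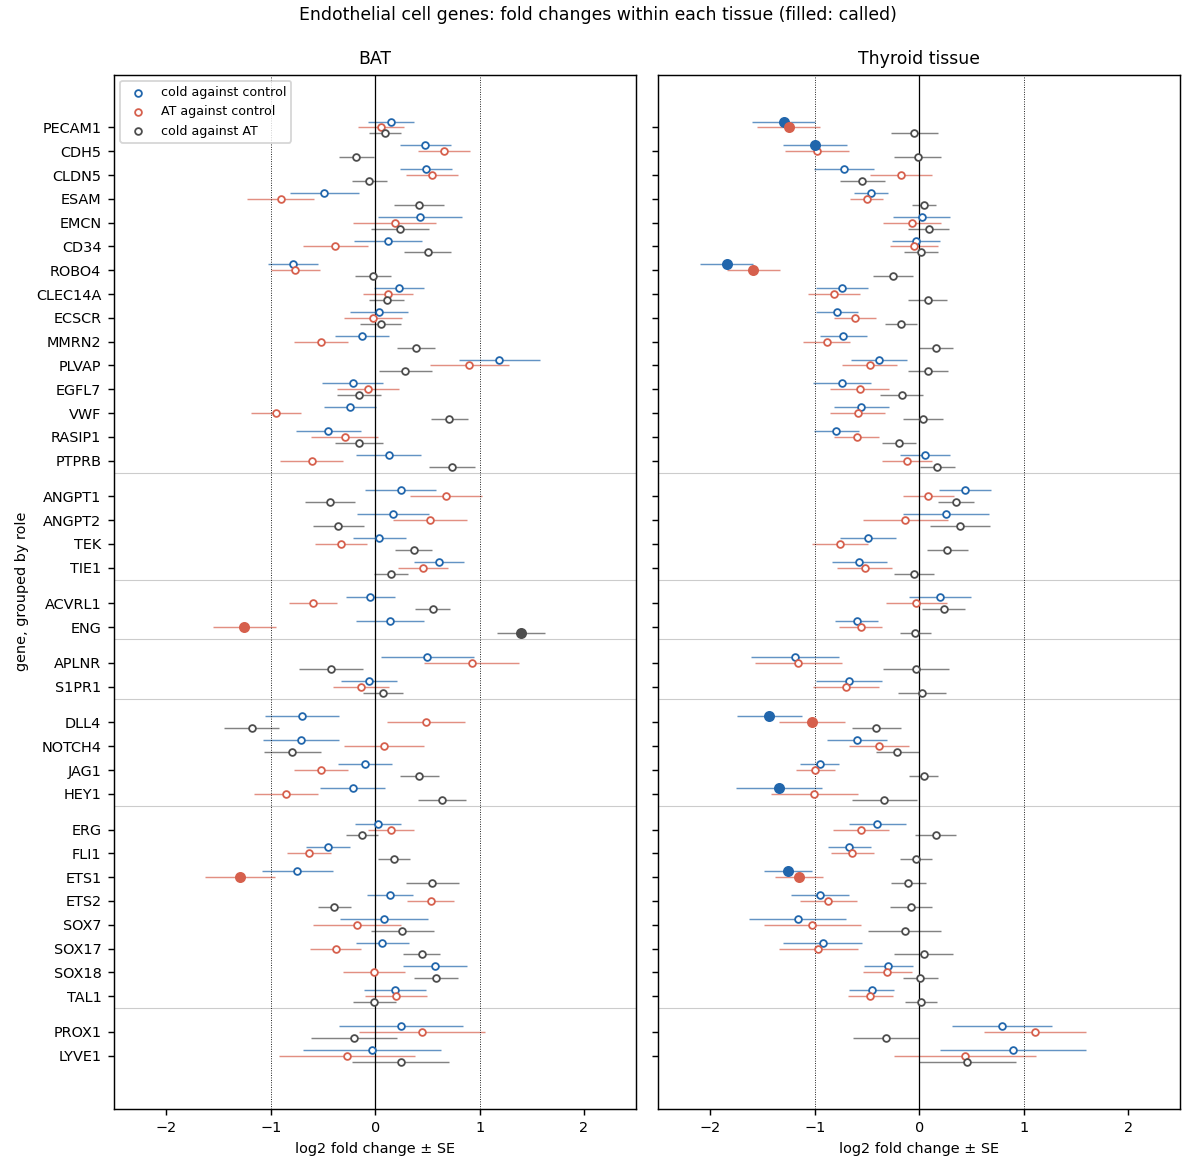
Log2 fold change ± SE (horizontal axis) of the 37 endothelial genes in BAT in the left panel and thyroid tissue in the right, grouped by role, for cold against control (blue), AT against control (red) and cold against AT (grey), with filled points for called genes. The called points are 3 in BAT, of which 2 are ENG, and 10 in thyroid tissue, all of them below 0 and against the controls.

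Whether a response differed between the tissues was tested in 1 fit over both. For AT against control, 2 of the 37 genes were called, both with a more positive value in BAT than in thyroid tissue, where 1.46% of all genes were called in that direction. These were CDH5, with a difference of log2FC of 1.69 ± 0.41, adjusted p = 0.0329, and ETS2, with 1.45 ± 0.38, adjusted p = 0.0487. Each was negative in thyroid tissue (CDH5 -0.98, ETS2 -0.87) and positive in BAT (CDH5 0.66, ETS2 0.53). ETS2 had 892 to 1523 (median 1149.9) in AT lambs and 923 in control 1, 1181 in control 2 and 677 in control 3 in BAT, where the groups overlapped, and 511 to 1420.4 (median 727) and 1511 in control 1, 1273 in control 2 and 1516 in control 3 in thyroid tissue, where they did not once control 2 is left aside. TMM scaling ended both calls (adjusted p = 0.0939 and 0.0747). So did leaving out both libraries of control 3 (adjusted p = 0.556 and 0.598), and leaving out control 1, AT lamb 4 or AT lamb 5 ended both as well. Of the 14 fits that each left out 1 lamb with both its libraries, 11 lost ETS2 and 4 lost CDH5, and the differences stayed between 1.25 and 1.71 for ETS2.

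For cold against control, 0 genes were called by edgeR, where 0.188% of all genes were, with 14 at an unadjusted p under 0.05, as were 1999 of all 17021 genes, and DESeq2 called PECAM1 and CDH5 (adjusted p = 0.0265 and 0.0323). For cold against AT, 0 were called by edgeR, where 0% of all genes were, with 6 at an unadjusted p under 0.05, as were 1339 of all genes. The value for ENG was 1.42 ± 0.27, adjusted p = 0.0865, and DESeq2 gave adjusted p = 0.000989.

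A second list of 55 endothelial genes, with receptors of VEGF, arterial and venous markers and targets of BMP signals, was followed in the same fits. This list and those of other cell types below were chosen with earlier results of these data known. Their counts of called genes therefore describe the lists and are not an independent test. Of its 49 genes tested in BAT, 4 were called higher in cold than in AT and 0 lower. Of all genes tested, 0.188% were called higher. The 4 were BMP6, a ligand of the BMP family (1.39 ± 0.25, adjusted p = 0.0318), ID1, a transcriptional target of BMP receptors (1.39 ± 0.21, adjusted p = 0.0198), FLT1, a VEGF receptor (1.14 ± 0.22, adjusted p = 0.0405), and SMAD6, an inhibitor that BMP signals induce (1.11 ± 0.21, adjusted p = 0.037). Cold lambs did not overlap AT lambs for ID1, with 2573 to 3986 against 714 to 1670.1, for BMP6, with 420.4 to 871 against 112 to 333, or for SMAD6, with 513 to 774 against 178 to 424. For FLT1 they did, with 1170.5 to 2445 against 474 to 1305. These genes are also used by cells other than endothelium.

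Against the controls in BAT, 2 of the 49 were called lower for cold, where 1.21% of all genes were called in either direction, and 8 for AT, where 3.21% were called lower. The largest of these was APLN, which encodes the ligand of the listed receptor APLNR (cold -2.78 ± 0.50, adjusted p = 0.019; AT -4.34 ± 0.51, adjusted p = 0.00048). APLN had 45.9 to 200.2 normalized counts in cold lambs and 20.4 to 96 in AT lambs, against 675 and 1015 in the controls that entered and 108 in control 2. Its receptor APLNR went the other way without passing (AT 0.92 ± 0.46, adjusted p = 0.211). NOS3, the endothelial nitric oxide synthase, was lower for cold (-1.40 ± 0.30, adjusted p = 0.0357) and AT (-1.87 ± 0.30, adjusted p = 0.003), and CXCL12, a chemokine, was lower for AT (-2.11 ± 0.41, adjusted p = 0.00836). In control 2, NOS3 had 809 normalized counts, below all treated lambs (at least 1516 for cold and 1190 for AT), the reverse of the other controls. Its CXCL12, at 3038, lay within the 1595 to 9662 of the AT lambs.

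Of the 51 genes of this list tested in thyroid tissue, 16 were called lower in each comparison with the controls, and 0 higher. Of all genes, 6.15% were called lower for cold and 5.98% for AT. ID1 (-2.74 ± 0.39, adjusted p = 0.00166 for cold), ID3, a relative of ID1 (-2.18 ± 0.34, adjusted p = 0.00227), and BMP6 (-2.70 ± 0.38, adjusted p = 0.0016) were among the largest, with ESM1, a marker of tip cells (-3.03 ± 0.63, adjusted p = 0.00675). For AT, ID1 had -2.80 ± 0.39, adjusted p = 0.00117, BMP6 had -2.59 ± 0.39, adjusted p = 0.00134, ID3 had -2.16 ± 0.35, adjusted p = 0.0018 and AQP1, a water channel of capillaries, had -2.17 ± 0.61, adjusted p = 0.0234. The control 2 library had 974 normalized counts of ID1, within the 413 to 1421 of the cold lambs, against 3000.2 in the lower of the other controls. Its ID3 (240) and AQP1 (17.4) were below all treated lambs, the reverse of the other controls. The lowest cold and AT values were 914 and 815 for ID3 and 174 and 86.4 for AQP1. BMP6, at 31.6, lay within the 28.8 to 81.3 of the cold lambs and below all AT lambs. ESM1, at 71.2, was above all cold lambs (at most 17.3) and within the AT lambs.

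Mural cells, the pericytes and smooth muscle around vessels, were followed by a list of 15 genes. The list is not confined to these cells: PDGFB encodes a ligand that endothelial cells make, and MCAM is also found on endothelial cells. In cold against AT in BAT, all 13 that were tested had positive values and 0 were called by edgeR, with 8 at an unadjusted p under 0.05, as were 1831 of all 14905 genes. The sum of the list was 24364 to 42718 in cold lambs and 16091 to 27016 in AT lambs, and these ranges overlapped. Against the controls, 4 were called lower for AT in BAT: NDUFA4L2 (-1.91 ± 0.38, adjusted p = 0.00877), ACTA2 (-1.68 ± 0.37, adjusted p = 0.0138), TAGLN (-1.23 ± 0.32, adjusted p = 0.0247) and KCNJ8 (-1.05 ± 0.26, adjusted p = 0.0204), where 3.21% of all genes were called lower. Control 2 was also above all AT lambs for NDUFA4L2 (695 against at most 233), ACTA2 (7048 against 4103) and TAGLN (4802 against 3080). For KCNJ8 its 275 lay within the 257 to 541 of the AT lambs. In thyroid tissue MCAM (-2.21 ± 0.32, adjusted p = 0.00164), TAGLN (-1.39 ± 0.31, adjusted p = 0.00922) and PDGFB (-1.03 ± 0.28, adjusted p = 0.021) were lower for cold, and MCAM (-1.77 ± 0.32, adjusted p = 0.00303) and TAGLN (-1.005 ± 0.31, adjusted p = 0.0347) for AT, so that 3 and 2 of 14 tested were called, where 6.15% and 5.98% of all genes were. None of these genes was higher in thyroid tissue of control 2 than in all treated lambs. Its MCAM (195) and PDGFB (248) were below every treated lamb, where the lowest values were 421 and 404. Its TAGLN, at 748, lay within the 615 to 1244 of the cold lambs and below the 867 to 1723 of the AT lambs. The part of a change in mural cells in the values of ENG, which smooth muscle can also express, was not tested.

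Markers of other cell types also differed between treated lambs and controls in thyroid tissue. Of 10 fibroblast genes, 4 were called higher for cold and 5 for AT, where 1.89% and 1.82% of all genes were called higher, and their sum was 30619 to 133762 in cold lambs, 36055 to 149476 in AT lambs and 14824 to 18215 in control 1 and control 3. Macrophage genes were called higher in 6 of 10 tested for cold and in 3 for AT, where 1 was lower, with sums of 3533 to 9509, 3077 to 6351 and 1820.2 to 1929.5. The thyrocyte gene TG was lower for cold (-0.90 ± 0.23, adjusted p = 0.0176) and AT (-1.17 ± 0.23, adjusted p = 0.00441). The sum of the 37 endothelial genes was 59310.5 to 78999, 58948 to 100754, 89414 in control 1 and 130152 in control 3, so that AT lamb 1 was above control 1. Skeletal muscle genes in AT lamb 3 and control 1 are given above, and without AT lamb 3 ROBO4 in AT against control was -1.53. What part the makeup of the tissue pieces had in the endothelial values was not tested.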

How the data were processed

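RNA of BAT and thyroid tissue was sequenced, 1 library for each tissue of each of 15 lambs. Per the labels and the study's methods, the authors trimmed reads with Trimmomatic 0.39 after FastQC 0.11.9, aligned them with STAR 2.7.7a to Oar_rambouillet_v1.0 and deposited raw counts per gene from featureCounts (Subread 2.0.0). Reads that matched several places were counted, and the strand setting of the counting is not given in the sources used here, so genes that overlap or have near copies are uncertain.

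From these counts, size factors came from ACTB, RPL19 and HUWE1. Genes that reached 10 reads in 10 or more libraries were tested with the edgeR 4.0.16 quasi-likelihood F-test in R 4.3.3, with Benjamini-Hochberg adjustment over all genes tested. Each tissue was fitted over 14 libraries (6 cold, 6 AT and 2 controls), and both tissues together over 28. A gene was called at an absolute log2FC of at least 1 and an adjusted p under 0.05. Each SE given is the absolute log2FC divided by the square root of the F statistic. It is therefore approximate and was not estimated by the fit itself. The 2 controls are those to which the study's normalized counts were proportional, which left out control 2. In the fits within a tissue, p-values measure the spread between lambs. The fit over both tissues had no term for the lamb and treated the 2 libraries of a lamb as independent. Its p-values therefore ignore the pairing, and the fit with the lamb as a replicate block is the alternative. The fits were tested on simulated data. There the reference genes had no noise and the 2 tissues of a lamb were unrelated, so neither scaling nor pairing was tested. In the BAT fit of AT against control, the reference genes themselves had log2FC -0.67 ± 0.21 for ACTB (adjusted p = 0.0611), 0.31 ± 0.19 for RPL19 (adjusted p = 0.311) and 0.07 ± 0.26 for HUWE1 (adjusted p = 0.897).

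Ranges and medians of the treated groups, with each control on its own, are given for every member called within a tissue. They are also given for those with the smallest unadjusted p until 10 were named, and for PECAM1, CDH5, VWF, PROX1 and LYVE1. For JAG1 and MMRN2 they are given in thyroid tissue only. The 3 largest differences between tissues and the called differences of response were also named, with up to 4 genes of each other list and further genes chosen after their values were seen. The members, their roles and the lists of further endothelial, mural, fibroblast, macrophage, adipocyte and skeletal muscle genes were chosen with earlier results of these data known.

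Alternatives were DESeq2 1.42.0, TMM and median-of-ratios scaling, no filter, other sets of controls, the RNA integrity number as a covariate, fits on only the groups compared, leaving out each library (or each lamb in fits over both tissues), and the lamb as a replicate block. Both tissues came from the same lamb, and over 14 lambs the correlation of the deviations of its 2 libraries had a median of 0.224 and was over 0.1 in 13. Figures were drawn with matplotlib 3.10.9.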

Additional observations from a re-analysis of the deposited data

Results flagged for a closer look

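Among 48 sets of 6 values, each of 1 named gene in 1 treated group of a tissue, 4 held a single value far from the others. Chance gives about 1 in 20 for independent normal values. The sets shared lambs and the counts were not on a log scale, so this rate is only a guide. PECAM1 was low in BAT of AT lamb 1, at 8695 normalized counts. In thyroid tissue, ROBO4 was high in AT lamb 1, at 3430.1, as was DLL4, at 549.7 in the same library, which also held the highest AT value for 26 of the 37 endothelial genes. LYVE1 was high in thyroid tissue of AT lamb 6, at 836.

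The response of AT against control differed between the tissues for CDH5, by 1.69 on the log2 scale, and for ETS2, by 1.45, in the interaction test over both tissues by edgeR (adjusted p = 0.0329 and 0.0487). Both values are BAT minus thyroid tissue.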

How the results depend on the processing

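The number of endothelial genes called higher in BAT than in thyroid tissue stayed within 1.5 times of 34 under every alternative run. The other numbers called were small and moved. In BAT, 0 for cold against control became 1 with DESeq2, with all 3 controls and with control 2 in place of control 1, 4 with control 2 in place of control 3, and 2 with all 3 controls and TMM scaling. For AT against control, 2 became 1 with TMM scaling and 0 on only the 2 groups compared, and with all 3 controls ENG and ETS1 were not called and 2 other genes, CDH5 (1.15) and PLVAP (1.20), were called higher. For cold against AT, 1 became 2 with DESeq2 and 0 with all 3 controls, with either exchange of control 2 and with all 3 controls and TMM scaling.

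In thyroid tissue, 6 for cold became 13 at the adjusted p alone, 2 with TMM, median-of-ratios and all 3 controls with TMM, and 3 with control 2 in place of control 3. For AT, 4 became 12 at the adjusted p alone, 1 with TMM, median-of-ratios or control 2 in place of control 3, 2 with all 3 controls and 0 with these and TMM. Differences of response between tissues moved from 0 to 2 for cold against control with DESeq2 and with control 2 in place of control 1. For AT against control, 2 became 0 with TMM, median-of-ratios and all 3 controls with TMM, 1 without the filter or with control 2 in place of control 3, and 4 with DESeq2 or control 2 in place of control 1. For cold against AT, 0 became 1 with TMM, median-of-ratios and DESeq2.

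Leaving out 1 library (in the fits over both tissues, 1 lamb with both libraries) gave 0 to 4 for AT against control in BAT (4 without AT lamb 2), 0 to 2 for cold against AT (2 without AT lamb 2 or 6), 0 to 12 and 0 to 10 for cold and AT against control in thyroid tissue (0 without control 3), and 0 to 2 and 0 to 1 for the differences of response for AT against control and cold against AT. With control 2 in place of control 3, 4 values changed sign in thyroid tissue: CDH5 was 0.12 for cold and 0.14 for AT, and CLEC14A was 0.11 for cold and 0.038 for AT. The fit with the lamb as a replicate block called 34 genes between tissues and 0, 2 and 0 for the differences of response, and changed no call. Of 811 values of single genes under the alternatives, 535 kept their direction and side of the threshold and 272 kept only the direction. The exchanges of control 2 and the fit of all 3 controls with TMM scaling were chosen after seeing the data. The causes were not tested.

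The comparisons with controls rest on 2 controls, and in BAT control 2 was far from both. In thyroid tissue its geometric mean over the 37 genes was 794, against 1316 in control 1 and 1817 in control 3. Its sum of the 37 genes there, 83036.8, was near the 89414 of control 1. PROX1 and SOX7 had few reads, and the counts of single genes lay between 12 and 30255 in BAT libraries and between 0 and 18111 in thyroid libraries.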
